A study of Oryza sativa with 6 samples.

Results

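Broad G4 domains are stretches of the rice genome in which peaks of BG4-bound DNA ran into each other over 2 kb or more. The peaks of the 4 deposited lists were pooled and merged wherever they overlapped by at least 1 bp, and a merged interval was kept when it was at least 2000 bp long and held peaks of at least 1 K+PEG and 1 K+PDS library. This gave 2427 domains out of 115855 merged intervals. Peaks of both conditions were present in 57263 merged intervals, of which the domains made up 4.24%, and the other 54836, all shorter than 2000 bp, are called narrower intervals here. The domains added up to 6.80 Mb, or 9.95% of the 68.4 Mb covered by any merged interval. Another 7 merged intervals reached 2000 bp with peaks of K+PDS alone, at lengths between 2016 and 2203 bp, and 0 did so with peaks of K+PEG alone.

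A G-quadruplex, or G4, is a DNA structure in which guanines of G-rich runs pair in stacked planar tetrads held together by a central cation. Potassium stabilizes it, polyethylene glycol (PEG) favors it by crowding the solution, and pyridostatin (PDS) is a small ligand that binds the tetrads. BG4 is a single-chain antibody that recognizes folded G4s, so that sequencing of the DNA it pulls down maps where G4s can form. A broad domain may hold many such places in a row, and a peak list cannot separate neighbouring G4s that lie closer than the length of the sequenced fragments.

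The libraries came from purified genomic DNA of wild-type, 2-week-old seedlings of the rice cultivar Nipponbare, which was folded in the test tube before the pulldown. The groups were K+PEG (potassium with PEG, 2 libraries) and K+PDS (potassium with PDS, 2 libraries), and the conditions shared 150 mM KCl. The protocol in the sample labels is the same text for every sample and names 40% PEG200 and no PDS, so the K+PDS libraries are known by their treatment label. The 2 input libraries were not analysed here. Because the DNA carried no chromatin during folding, the domains describe DNA in vitro and not its state in a cell. The study describes the replicates of a condition as biological, and the labels number them without naming the plants or DNA preparations.

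K+PEG replicates 1 and 2 had 73199 and 81992 peaks, and K+PDS replicates 1 and 2 had 64874 and 68973. The reads behind the peak calls, recovered from the deposited fold enrichment and p-value of each peak with an assumed read extension of 200 bp, came, in units of 1000000 reads, to 7.90 and 13.3 for the K+PEG libraries and to 5.99 and 7.55 for the K+PDS libraries. Every peak name deposited for K+PDS holds the tag uniq, which no K+PEG name has. Whether reads were filtered for unique mapping in K+PDS alone is not given in the sources used here, and such a filter cannot be told apart from the condition in any comparison below.

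Most domains were a little over the minimum length. The median length was 2596 bp, with quartiles at 2216.5 and 3107 bp, and the longest domain had 9339 bp. The number of domains of 3000 bp or more was 697, and 54 reached 5000 bp. The 2 shortest domains, at chr7:13339480-13341479 and chr8:12703579-12705579, had 2000 and 2001 bp, with 6 and 5 peaks inside. The 2 longest intervals just outside the rule, at chr1:26560629-26562627 and chr2:19181359-19183357, had 1999 bp each, with 7 and 8 peaks. In 1517 domains (62.5%) at least 1 single peak was itself 2000 bp or longer, and the other 910 (37.5%) reached 2 kb through chaining of shorter peaks. The number of domains depended on K+PDS replicate 1, since 1509 were found without that library.

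A domain held a median of 8 peaks, between 2 and 20 over the 4 libraries together. Peaks of all 4 libraries were present in 2322 domains (95.7%), compared with 48.0% of all intervals with both conditions, and a longer interval has room for more peaks, whose part in this was not tested. Peaks of 3 libraries were present in 103 domains and of 2 libraries in 2. K+PEG replicate 1 was the library most often missing, with no peak in 84 domains, followed by K+PEG replicate 2 with 13, K+PDS replicate 2 with 6 and K+PDS replicate 1 with 4.

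The conditions differed in how their peaks filled the domains. A domain held a mean of 2.16 and 2.13 K+PEG peaks, against 1.79 and 1.88 K+PDS peaks (replicates 1 and 2 of each). The K+PEG peaks were more numerous and shorter. Here and below, a pair of values is that of replicate 1 and replicate 2 of the condition. Peaks inside domains had a median length of 563 and 684 bp in K+PEG, against 1064 and 791 bp in K+PDS. In narrower intervals the K+PEG peaks were the longer ones, with medians of 433 and 466 bp in K+PEG and 394 and 383 bp in K+PDS. A single peak was all that K+PEG replicates 1 and 2 had in 574 and 638 domains, whereas this was so in 1024 and 908 domains for K+PDS replicates 1 and 2. The longest peak of the domain belonged to a K+PDS library in most cases, with 1252 domains for K+PDS replicate 1 and 600 for replicate 2, against 102 for K+PEG replicate 1 and 473 for replicate 2. These lengths and counts entered the rule and are given as a description. The single-peak and longest-peak counts were made for domains alone, so no share over all intervals stands beside them.

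The 5 longest domains are examples of this pattern at single loci. They were picked by length, which the long K+PDS peaks help to make, so they are no separate support for it. The longest, chr5:29884052-29893390, lay 63.9 kb before the last peak of chromosome 5 and held 20 peaks, the most of any domain. K+PEG replicates 1 and 2 had 7 and 8 of them, and K+PDS replicates 1 and 2 had 3 and 2. The peaks covered 73.8% and 72.1% of the domain in K+PEG and 94.4% and 95.3% in K+PDS. The strongest peak had a fold enrichment, a ratio of summit reads over the background nearby, of 7.06 and 4.26 in K+PEG, against 10.9 and 10.1 in K+PDS. Both K+PDS libraries were above both K+PEG libraries in either measure.

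**Figure D1:**
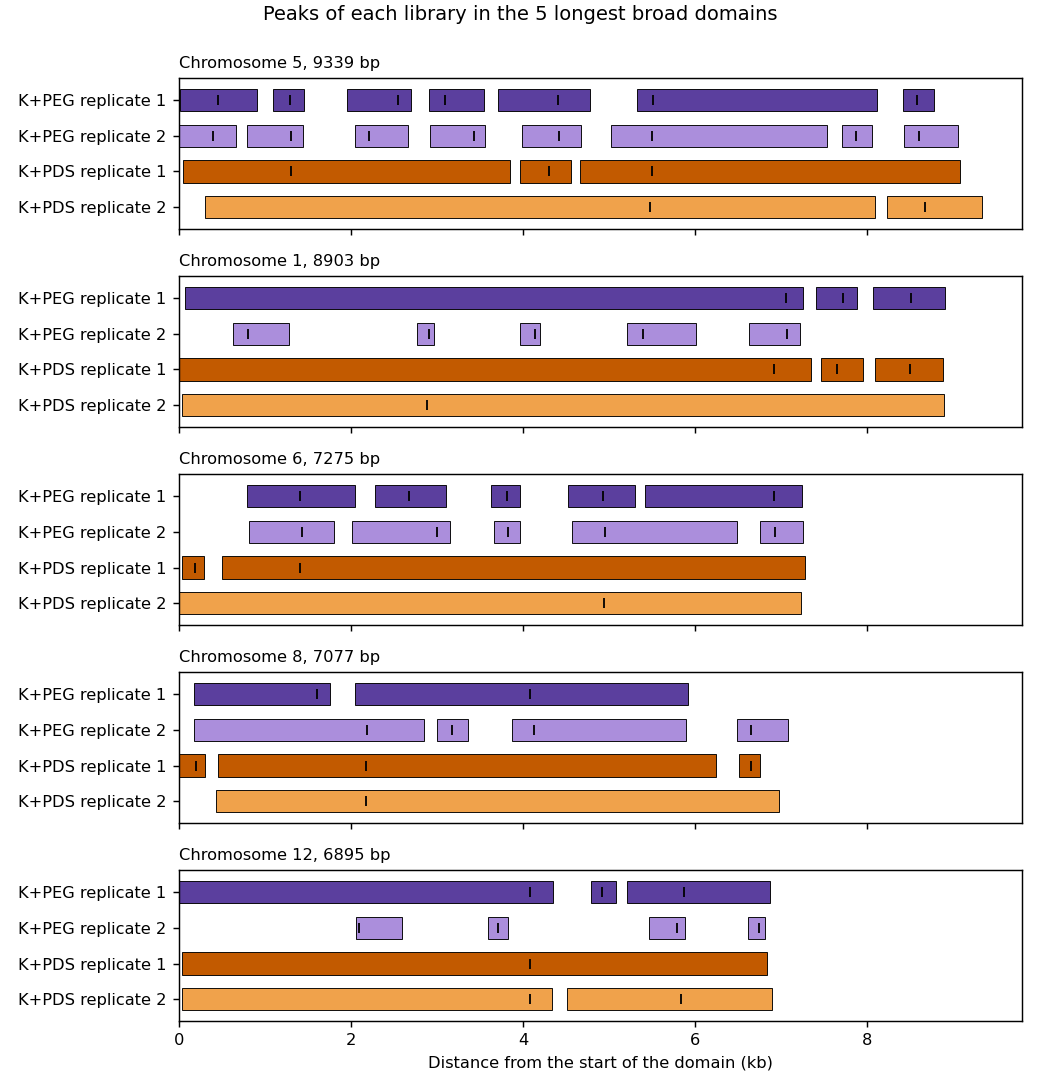
Peaks of each library (bars, with a tick at the summit) in the 5 longest broad domains, by distance from the start of the domain in kb. In the longest domain, on chromosome 5, the K+PEG libraries have 7 and 8 separate peaks where the K+PDS libraries have 3 and 2 longer ones, and in the domains on chromosomes 1 and 12 K+PEG replicate 2 covers 27.9% and 19.96% where the other 3 libraries cover over 90%.

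The domain of chromosome 6, chr6:18039-25313, started 18.0 kb from the first base of the chromosome, and that of chromosome 8, chr8:28424100-28431176, ended 10.9 kb before its last peak. In both, a single K+PDS replicate 2 peak covered over 90% of the domain (99.5% on chromosome 6 and 92.5% on chromosome 8), and K+PDS replicate 1 covered 96.7% and 89.5%. K+PEG replicates 1 and 2 covered 69.4% and 66.5% of the chromosome 6 domain with 5 peaks each. On chromosome 8 they covered 77.1% and 79.7%, with 2 and 4 peaks.

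The other 2 of the 5 longest domains lay far from the chromosome ends and split the K+PEG replicates. In chr1:17123046-17131948, 8903 bp long, K+PEG replicate 1 covered 95.4% and replicate 2 27.9%, against 96.8% and 99.5% for K+PDS replicates 1 and 2. The strongest fold enrichment there was 11.9 and 3.10 in K+PEG replicates 1 and 2, against 9.88 and 9.24 in K+PDS. In chr12:11835047-11841941, 6895 bp long, the covered shares were 91.4% and 19.96% in K+PEG and 98.8% and 97.1% in K+PDS. K+PEG replicate 2, the deepest library, was thus the low one at both loci, and K+PEG replicate 1 was close to the K+PDS libraries. The longest domain of chromosome 7, chr7:12274680-12281296, had the same order, with 92.6% and 20.2% in K+PEG and 93.1% and 98.5% in K+PDS.

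The longest domain of each of the 12 chromosomes was between 5384 and 9339 bp long. These domains were also picked by length, so the counts that follow are a description and no separate support. In 12 of 12 its longest peak was a K+PDS peak, and K+PDS replicate 1 covered at least 80% of it in 12 of 12, K+PDS replicate 2 in 7, K+PEG replicate 1 in 3 and K+PEG replicate 2 in 0. The exceptions to the order of the conditions were chromosomes 3 and 11. At chr3:21800997-21806380 the covered shares were 70.5% and 71.2% in K+PEG and 91.2% and 49.3% in K+PDS, so the K+PEG libraries lay between the K+PDS ones. At chr11:21305648-21312388 K+PEG covered 53.4% and 71.1%, while a single K+PDS replicate 1 peak of 6741 bp spanned the whole domain and K+PDS replicate 2 covered 49.9%. The remaining longest domains, at chr2:810437-817091, chr4:3174382-3180743, chr9:7070322-7075790 and chr10:7059156-7064915, were 5469 to 6655 bp long. At these 4 loci K+PEG covered 18.1% to 62.9% and K+PDS 50.4% to 93.7%.

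Over the domains as a whole, peaks covered 54.8% of the bases in K+PEG replicate 1 and 65.1% in replicate 2, against 84.6% in K+PDS replicate 1 and 70.5% in replicate 2. The mean was 59.9% ± 7.28 for K+PEG and 77.6% ± 10.0 for K+PDS (SD, n = 2 each), a difference of -17.6 percentage points. Both K+PEG libraries were below both K+PDS libraries, and K+PEG replicate 2 and K+PDS replicate 2 lay closest. Without K+PDS replicate 1 the difference was -9.98 points. In narrower intervals the order was not the same, with 58.5% and 72.2% in K+PEG, against 59.1% and 53.0% in K+PDS. The covered share of domains minus that of narrower intervals was -3.65 and -7.11 points in the K+PEG libraries and 25.5 and 17.5 points in the K+PDS libraries. The recovered depth ran in the opposite order to these 4 values, with the most reads in K+PEG replicate 2, then K+PEG replicate 1, K+PDS replicate 2 and K+PDS replicate 1. By rank, depth therefore moved with the condition, although K+PEG replicate 1 and K+PDS replicate 2 lay close, at 7.90 and 7.55 in units of 1000000 reads. The part of depth in the difference was not tested.

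**Figure D2:**
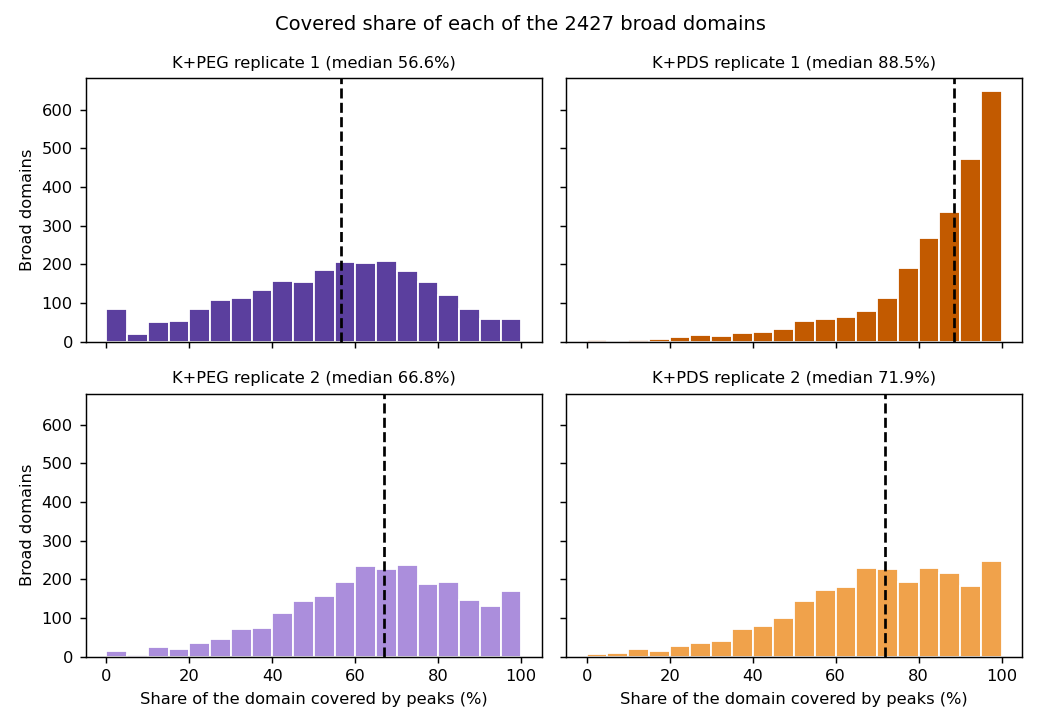
Share of each of the 2427 broad domains covered by peaks of the library (x axis, %) against the number of domains (y axis), with the median as a dashed line. The K+PEG libraries, on the left, have medians of 56.6% and 66.8%, and the K+PDS libraries, on the right, 88.5% and 71.9%, with K+PDS replicate 1 piled up near full coverage.

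Domain by domain, both K+PEG libraries covered less than both K+PDS libraries in 1185 domains (48.8%), compared with 15.0% of all intervals with both conditions. The reverse order was found in 183 domains (7.54%), against 31.5% of all intervals, and the libraries of the conditions overlapped in 1059 (43.6%), against 53.5%. Without K+PDS replicate 1, the K+PEG libraries were both below K+PDS replicate 2 in 745 of 1509 domains (49.4%, against 34.8% of all intervals then) and both above it in 370 (24.5%, against 37.7%). The rule used peak positions, so these shares are given without a test. At least 80% of the domain was covered in 323 domains by K+PEG replicate 1, in 640 by K+PEG replicate 2, in 1726 by K+PDS replicate 1 and in 876 by K+PDS replicate 2. The most frequent sets were K+PDS replicate 1 alone with 727 domains, both K+PDS libraries and neither K+PEG library with 519, and K+PEG replicate 2 alone with 245. Both K+PEG libraries and neither K+PDS library reached 80% in 58 domains, and all 4 libraries did so in 22. The counts at 80% were made for domains alone, so no share over all intervals stands beside them. In narrower intervals K+PEG replicate 2 had the highest covered share, 72.2% of the bases.

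The extremes show both orders. The lowest difference was at chr2:23203583-23206074, where peaks covered 0% and 12.7% of 2492 bp in K+PEG, against 85.2% and 84.6% in K+PDS. The highest was on the same chromosome, at chr2:23436250-23438378, where K+PEG replicate 1 covered 86.0% of 2129 bp and replicate 2 all of it, while K+PDS replicate 1 had no peak and K+PDS replicate 2 covered 42.6%. Fold enrichment was below the library's median over domains at both loci, at 2.37 in the one K+PEG library with a peak and 4.10 and 4.16 in K+PDS at the first, and at 4.75 and 2.82 in K+PEG and 4.02 in K+PDS replicate 2 at the second.

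A few domains were filled by all libraries. At chr2:10344375-10347366, 2992 bp long, each library had a single peak, and 94.7% of the bases were covered in all 4, the highest such share. Fold enrichment there was 16.5 and 14.8 in K+PEG and 15.7 and 10.4 in K+PDS. The domain with the highest fold enrichment in its weakest library, chr1:4231999-4234057, also had 1 peak per library, with 25.3 and 19.2 in K+PEG, against 21.8 and 14.7 in K+PDS. The reads at its summits numbered 138 and 163 in K+PEG and 95 and 77 in K+PDS. The ranges of the conditions overlapped in fold enrichment at both loci. Over all domains, 30.2% of the bases were covered by all 4 libraries, 30.7% by 3, 23.0% by 2 and 16.1% by 1. Bases with K+PEG peaks alone made up 7.43% of the domains and bases with K+PDS peaks alone 21.3%, against 21.7% and 16.2% in narrower intervals. A base covered by all 4 libraries was found in 2255 domains, and such bases filled at least 50% of the length in 289. Both counts were made for domains alone. The median share covered by all 4 was 29.1% in domains and 0% in narrower intervals. Peaks of all 4 libraries were present in 95.7% of domains and 45.9% of narrower intervals, and the part of this in the counts was not tested.

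To measure coverage in a library that had no part in choosing the domains, the domains were rebuilt from the other 3 libraries in turn by the same rule. The covered share was 53.6% in 2267 domains for K+PEG replicate 1 and 60.6% in 1825 domains for K+PEG replicate 2, against 82.4% in 1509 domains for K+PDS replicate 1 and 68.1% in 1839 domains for K+PDS replicate 2. The mean was 57.1% ± 4.97 for K+PEG and 75.2% ± 10.1 for K+PDS (SD, n = 2 each), a difference of -18.1 points with p = 0.333 in a two-sided exact permutation test over libraries. Both K+PEG libraries were below both K+PDS libraries, and 0.333 is the smallest p that this test can give with 2 libraries against 2, so it cannot pass 0.05 whatever the size of the difference. In narrower intervals of the same 3 libraries the held-out share was 64.0% ± 10.8 for K+PEG and 53.5% ± 5.81 for K+PDS (SD, n = 2 each), with an exact p = 0.667. The held-out share of domains minus that of narrower intervals was -2.72 and -10.9 points in the K+PEG libraries and 24.8 and 18.7 points in the K+PDS libraries (exact permutation p = 0.333). The 6 tests over libraries gave Benjamini-Hochberg adjusted values between 0.4 and 0.667. A held-out K+PEG library was measured in domains chosen by 1 K+PEG and 2 K+PDS libraries, and a held-out K+PDS library in the reverse, so the held-out values still depend on the mix of the libraries that chose the domains.

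**Figure D3:**
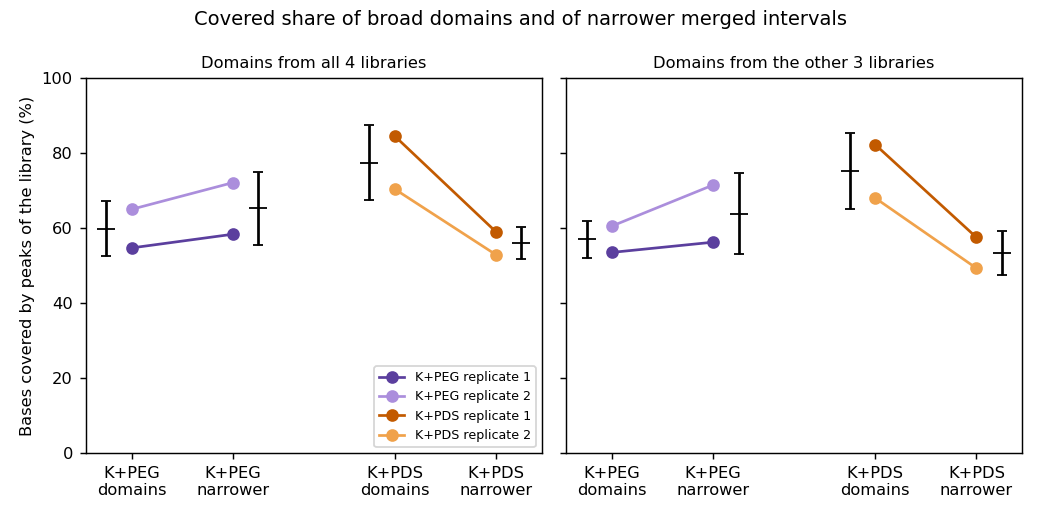
Share of bases covered by each library (points, joined within a library) in broad domains and in narrower intervals, chosen with all 4 libraries (left) or with the other 3 (right), with the mean and SD of each condition beside the points in black (n = 2). In both panels the K+PEG lines slope up toward narrower intervals and the K+PDS lines slope down, and held-out shares in domains are 53.6% and 60.6% in K+PEG and 82.4% and 68.1% in K+PDS.

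The strength of the peaks did not enter the rule directly, but length and strength of a peak come from the same reads. Strength is therefore not independent of the choice of domains, and it was not measured with the library held out. The exact tests on it are given with that limit. Peak strength was described at the summit of the strongest peak of each library in each domain. The median fold enrichment was 4.84 and 5.17 in K+PEG replicates 1 and 2, against 6.70 and 5.19 in K+PDS replicates 1 and 2. The mean was 5.01 ± 0.227 for K+PEG and 5.94 ± 1.07 for K+PDS (SD, n = 2 each), a difference of -0.94 with an exact permutation p = 0.333. The K+PDS mean rested on replicate 1, and without that library the difference was -0.01 (exact p = 1). In narrower intervals the medians were 4.19 and 4.10 in K+PEG and 3.98 and 3.40 in K+PDS (exact permutation p = 0.333), so the K+PEG libraries were the higher ones there. A domain offers more peaks to choose the strongest from than a narrower interval does. Over all peaks, not the strongest alone, the median inside domains was 3.94 and 3.52 in K+PEG and 5.24 and 3.98 in K+PDS, and in narrower intervals 4.07 and 3.96 in K+PEG and 3.86 and 3.33 in K+PDS. Domains minus narrower intervals thus gave -0.13 and -0.44 in the K+PEG libraries and 1.38 and 0.65 in the K+PDS libraries (exact permutation p = 0.333). The reads at the strongest summit had a median of 27 and 45.5 in K+PEG and 30 and 28 in K+PDS.

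Among the 2322 domains with peaks of all 4 libraries, both K+PEG libraries had a lower strongest fold enrichment than both K+PDS libraries in 926 (39.9%), compared with 18.4% of all intervals with peaks of all 4. The reverse order was found in 288 (12.4%), compared with 38.0%. In the 1185 domains where K+PEG covered less, the median strongest fold enrichment was 4.68 and 4.12 in K+PEG and 6.99 and 5.63 in K+PDS. In the 183 domains where K+PEG covered more, it was 6.38 and 7.37 in K+PEG and 5.46 and 4.02 in K+PDS. Length and strength of a peak come from the same reads, so these medians are no separate support for the classes.

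Several K+PEG peaks often lay under 1 K+PDS peak. A single K+PDS replicate 1 peak overlapped 2 or more peaks of K+PEG replicate 1 in 1301 domains (53.6%, against 5.17% of all intervals with both conditions) and of K+PEG replicate 2 in 1408 (58.0%, against 5.50%). For K+PDS replicate 2 the counts were 1101 and 1200 domains (background 4.84% and 5.36%). In the opposite direction, a single peak of K+PEG replicate 1 overlapped 2 or more peaks of K+PDS replicates 1 and 2 in 364 and 369 domains (2.91% of all intervals for each), and one of K+PEG replicate 2 did so in 814 and 818 (5.31% and 4.78%). Joining of this kind was also common within a condition. A K+PDS replicate 1 peak joined 2 or more K+PDS replicate 2 peaks in 1126 domains (background 5.02%), and a K+PEG replicate 2 peak joined 2 or more K+PEG replicate 1 peaks in 804 (background 4.90%). The counts in the other direction were 786 for K+PDS (3.86%) and 577 for K+PEG (2.94%). The backgrounds are made mostly of narrower intervals, with a median length of 654 bp against 2596 bp for domains. Such intervals have less room for 2 peaks of one library, and domains were chosen by the chaining of peaks. The part of length and of the rule in these contrasts was not tested. Neighbouring peaks of one library in a domain were spaced much alike in the 4 libraries, with a median distance between summits of 965 and 1038 bp in K+PEG and of 1105 and 1042 bp in K+PDS. The gap between their edges had a median of 316 and 303 bp in K+PEG and of 201 and 267 bp in K+PDS, and was never under 109 bp.

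The libraries did not place their strongest summits at the same point of a domain. The 4 strongest summits lay within 100 bp of each other in 172 of 2322 domains (7.41%), and their range had a median of 1262 bp, against 22.8% and 217 bp in narrower intervals, where less room is available. The median distance between strongest summits was 318 bp for the K+PEG replicates, 172 bp for the K+PDS replicates and between 425 and 775 bp for the 4 pairs across conditions, with the largest between both replicates 2. In narrower intervals the K+PEG replicates were the closer ones, at 55 bp against 97 bp for the K+PDS replicates. Across domains, the Spearman correlation of the strongest fold enrichment was 0.363 between the K+PEG replicates (2330 domains), 0.712 between the K+PDS replicates (2417 domains) and between 0.044 and 0.317 across conditions. They correlated at 0.179 between the K+PEG replicates and at 0.323 between the K+PDS replicates, and K+PEG replicate 2 and K+PDS replicate 2 had the lowest value, -0.428. The domains are not independent replicates and were chosen from these same peaks, so these correlations are descriptions. A low coverage in one library also makes a high one in another more likely here, because every base of a domain is covered by at least 1 library.

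Along the length of the domains, the conditions differed most in the middle. In the 2 central of 20 equal bins, peaks covered 55.7% and 62.7% in K+PEG, against 88.5% and 77.7% in K+PDS. In the 2 outermost bins the shares were 29.1% and 44.0% in K+PEG and 62.5% and 41.9% in K+PDS. K+PDS coverage was highest near the center of the domains, whereas both K+PEG libraries dipped there. K+PEG replicate 1 was at 55.3% in the tenth bin and 61.4% in the fourth, and K+PEG replicate 2 at 62.3% in the tenth and 71.1% in the fifth. In narrower intervals each of the 4 libraries was highest in the middle, at 68.3% and 83.2% in K+PEG and 70.3% and 63.8% in K+PDS. The outer edge of the domain was most often set by K+PDS replicate 1 (41.0% of edges), followed by K+PEG replicate 2 (25.4%), K+PDS replicate 2 (23.2%) and K+PEG replicate 1 (11.7%). In narrower intervals K+PEG replicate 2 set the most edges (36.7%).

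**Figure D4:**
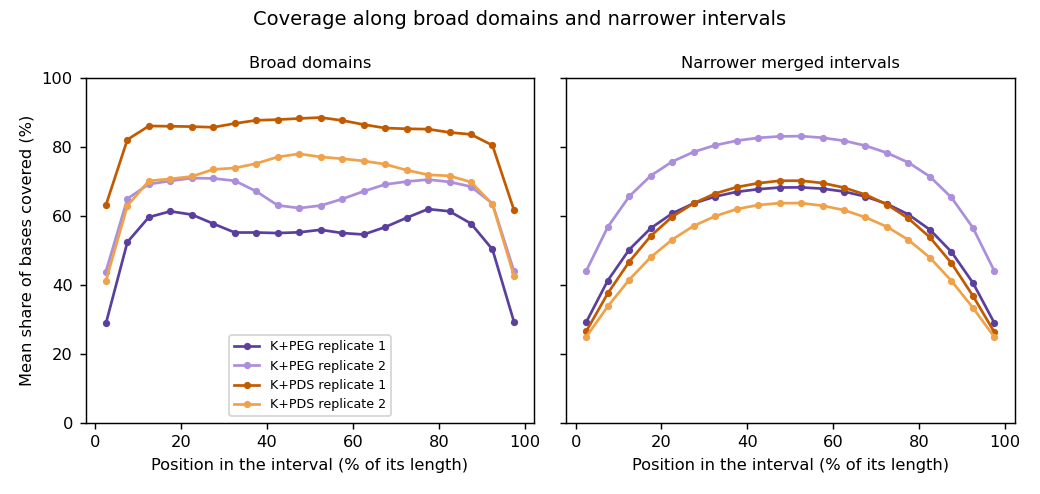
Mean share of bases covered by each library (y axis, %) along broad domains (left) and narrower intervals (right), each divided into 20 bins of equal width (x axis, % of the length). In the middle of the domains the K+PEG curves are at 55.7% and 62.7% and the K+PDS curves at 88.5% and 77.7%, and in narrower intervals the 4 curves share one arched shape.

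Longer domains leaned further to K+PDS. Both K+PEG libraries were below both K+PDS libraries in 510 of 1111 domains of the shortest class (45.9%), in 252 of 497 in the middle class, which starts at 3000 bp (50.7%) and in 44 of the 54 domains of 5000 bp or more (81.5%). The reverse order was found in 1 of 54 in the longest class, against 135 of 1111 (12.2%) in the shortest. In the domains of 5000 bp or more, 64.7% and 56.5% of the bases were covered in K+PEG and 92.8% and 83.3% in K+PDS. K+PEG replicate 1 covered more than replicate 2 in that class alone among the 5 length classes. The long peaks of the K+PDS libraries help to make a domain long, so length and covered share are not independent.

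The replicates of a condition could also disagree strongly. With cuts of 80% and 40% that were chosen after the values were seen, K+PEG replicate 1 covered at least 80% and replicate 2 under 40% in 54 domains, and the opposite was found in 131. The first set looked like the domains on chromosomes 1, 7 and 12 above. Its median covered share was 89.0% and 30.3% in K+PEG and 96.1% and 96.8% in K+PDS, both K+PDS libraries reached 80% in 45 of 54, and the median strongest fold enrichment was 6.23 and 3.01 in K+PEG and 7.35 and 6.05 in K+PDS. In the second set the median share was 29.2% and 88.7% in K+PEG and 74.4% and 52.1% in K+PDS, and both K+PDS libraries reached 80% in 11 of 131. The first set lay on 12 chromosomes, a median of 39.0% of the chromosome from its nearest end, and the second set a median of 27.4%. K+PDS replicate 1 covered at least 80% and replicate 2 under 40% in 62 domains, and the opposite was found in 12. The same cuts were not applied to narrower intervals, so these counts are not read as a trait of the domains.

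Domains were found on each of the 12 chromosomes. Their number ranged between 154 on chromosome 3 and 264 on chromosome 4, and their density between 4.23 per Mb on chromosome 3 and 8.88 per Mb on chromosome 10. Read against the merged intervals with both conditions, they made up 2.89% on chromosome 3, 3.11% on chromosome 2 and 3.61% on chromosome 1, the 3 lowest shares, and 5.50% on chromosome 10, 5.13% on chromosome 9 and 5.04% on chromosome 11, the 3 highest. The covered share of K+PEG minus that of K+PDS was negative on each chromosome, between -10.9 points on chromosome 3 and -21.6 points on chromosome 6. The rule chose the domains with the same peaks, so this agreement of the chromosomes adds no replicate.

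**Figure D5:**
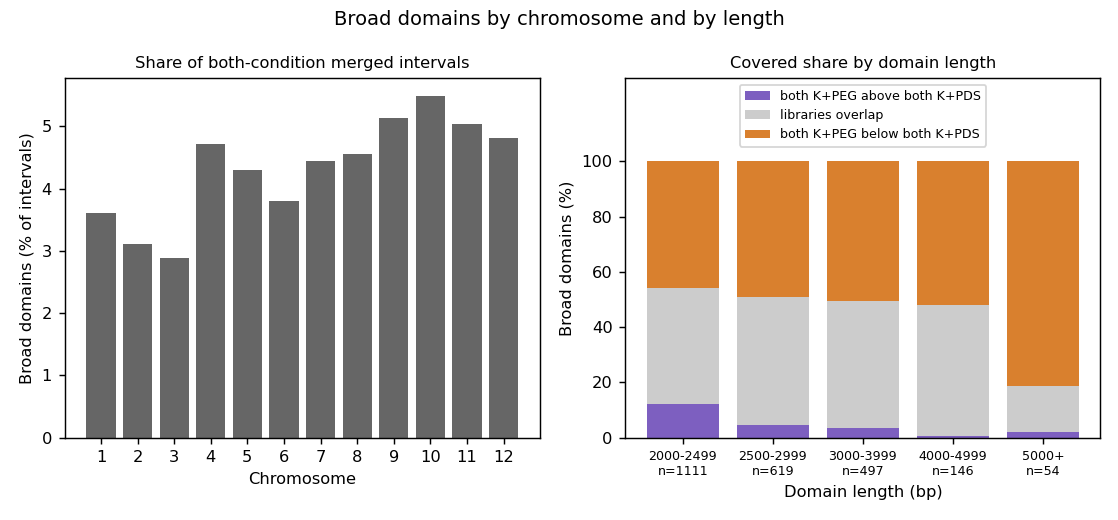
Left, broad domains as a share of the merged intervals with peaks of both conditions (y axis, %) on each of the 12 chromosomes. Right, share of the domains of each length class (y axis, %) in which both K+PEG libraries covered more (bottom) or less (top) than both K+PDS libraries or the libraries overlapped (grey), with less in 45.9% of the shortest and 81.5% of the longest class.

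Within chromosomes, the domains lay further from the ends than narrower intervals did. The median distance from the nearest end was 32.4% of the chromosome for domains and 26.6% for narrower intervals, and 55.2% of the domains against 43.0% of the narrower intervals lay at least 30% inside. Domains in which K+PEG covered less than K+PDS had a median of 33.6%, and those in which K+PEG covered more had 25.9%. Narrower intervals were not split by this order, so the contrast is not read as a trait of the domains. No test was made, since neighbouring domains are not independent. The chromosome end was taken as the end of the last peak, as no genome of the build was at hand.

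The spacing of the domains was uneven. In bins of 1 Mb the median was 5 domains, 14 of 379 bins had 0, and the 40 bins with 15 or more, 3 times the median and a cut chosen after the values were seen, held 731 domains (30.1%). The number of domains in a bin followed the number of merged intervals with both conditions, with a Spearman correlation of 0.717 over the 379 bins. The domains are themselves counted among those intervals, so the value is given as a description. The fullest bin, between 10 and 11 Mb of chromosome 5, had 33 domains among 252 merged intervals with both conditions, or 13.1% against 4.24% over the genome. The 2415 gaps between neighbouring domains had a median of 56959 bp, with quartiles at 9732.5 and 186937 bp, and 428 (17.7%) were of 5000 bp or less and 151 of 1000 bp or less. How many short gaps an even spread would give was not computed. Domains within 5000 bp of each other formed 339 chains, which held 767 domains (31.6%), and 11 chains had 4 or more. The longest chain had 6 domains between 10192216 and 10225727 on chromosome 5, in that fullest bin. Domains filled 68.5% of its 33512 bp, and their bases were covered to 44.4% and 58.7% in K+PEG and to 95.2% and 75.3% in K+PDS. The median strongest fold enrichment in the chain was 8.24 and 7.92 in K+PEG and 11.3 and 9.05 in K+PDS.

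A small group lay at the very ends. Within 200 kb of a chromosome end, a distance set after the longest domains had been seen, 47 domains were found at 14 of the 24 ends, with 12 at the far end of chromosome 5, 10 at the start of chromosome 6, 7 at the start of chromosome 4 and 5 at the start of chromosome 9. They included 7 domains of 5000 bp or more (14.9%), against 47 of 2380 elsewhere (1.97%), while the median length was 2546 bp there and 2598 bp elsewhere. Covered shares were 60.7% and 63.0% in K+PEG and 86.7% and 77.6% in K+PDS at the ends, and 54.7% and 65.1% in K+PEG and 84.6% and 70.3% in K+PDS elsewhere. Both K+PEG libraries were below both K+PDS libraries in 29 of the 47 (61.7%), against 1156 of 2380 elsewhere (48.6%), and above them in 6 (12.8%), against 177 elsewhere (7.44%). Both orders thus had a higher share at the ends, on 29 and 6 domains, with no test made. How many of all intervals with both conditions lay within 200 kb of an end was not counted. The 47 domains are therefore not read as an excess there. At the start of chromosome 6, a chain of 4 domains between 3023 and 25313 was covered to 55.5% and 66.1% in K+PEG and to 91.7% and 85.1% in K+PDS.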

How the data were processed

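BG4-DNA-IP-seq peaks of 2 K+PEG and 2 K+PDS libraries were used. The authors trimmed reads with Trim Galore, aligned them to the MSU rice genome, version 7, with BWA, removed duplicates and called peaks with MACS2 in each library at p = 0.01, with no pooling. The control given to MACS2 is not given in the sources used here. The deposited lists hold 10 columns, and starts are printed here plus 1 bp. The deposited fold enrichment is a linear ratio of summit reads to local background. The −log10 p and −log10 q are those the authors deposited for the summit, the score is the authors' browser value, and neither q nor score entered a comparison. Signal that missed the threshold is not in the lists.

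Merging, coverage and tests used pandas 2.3.3, scipy 1.17.1 and numpy 2.4.6 under Python 3.11.15. Summit reads were solved from fold enrichment and −log10 p, and the depth from the lowest background and a genome size of 380000000 bp. Values per library were compared by two-sided exact permutation tests. The test on the fold enrichment of all peaks was added after the values were seen. Merging was run on simulated data, where 400 of 400 broad domains were recovered. Each simulated domain was spanned by a full-length peak of a single library, so the chaining of shorter peaks was not tested. Members, measures and lists were chosen with earlier results of these data known. The named loci were the longest domain of each chromosome, the 5 longest, those next to 2000 bp, and the extremes of coverage, strength and peak number. Annotation and sequence of the build were not used here, so genes, repeats, base composition and G4 motifs of the domains were not analysed here. Alternatives were other minimum lengths, overlaps and gaps, a stricter p-value, equal numbers of peaks, peaks of all 4 libraries, each library in turn left out, and a block for replicate numbers.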

Additional observations from a re-analysis of the deposited data

Results flagged for a closer look

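The covered share of domains minus that of narrower intervals went opposite ways in the conditions, with -3.65 and -7.11 points in the K+PEG libraries and 25.5 and 17.5 points in the K+PDS libraries, a difference of -26.9 points that was not tested because the rule used coverage. With each library held out of the choice of domains, the values were -2.72 and -10.9 points in K+PEG and 24.8 and 18.7 points in K+PDS, a difference of -28.6 points (exact permutation p = 0.333, the smallest possible with 2 libraries against 2). The median fold enrichment of peaks inside domains minus that in narrower intervals was -0.13 and -0.44 in K+PEG and 1.38 and 0.65 in K+PDS, a difference of -1.30 (exact permutation p = 0.333). Fold enrichment was not measured with the library held out, and it is not independent of the peak lengths that chose the domains.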

How the results depend on the processing

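The number of domains, 2427 as described, was 5432 at a minimum length of 1500 bp, 697 at 3000 bp and 1517 when a single peak of at least 2000 bp was required, an alternative added after seeing the data. It was between 1509 (without K+PDS replicate 1) and 2267 with each library left out, and between 2241 and 2763 under the other alternatives. The difference in covered share, K+PEG minus K+PDS, kept its sign in 14 alternatives, between -9.98 points without K+PDS replicate 1 and -25.1 points without K+PEG replicate 2. Both K+PEG libraries, or the one that was left, covered less than K+PDS in 55.0% of domains without K+PEG replicate 1 (17.2% of all intervals), 76.5% without K+PEG replicate 2 (22.0%), 49.4% without K+PDS replicate 1 (34.8%) and 72.8% without K+PDS replicate 2 (34.5%), counts added after seeing the data. The difference in strongest fold enrichment kept its sign in 14, between -0.01 without K+PDS replicate 1 and -1.61 without K+PDS replicate 2, with exact p-values between 0.333 and 1. The held-out difference was between -13.4 and -22.4 points in 10 alternatives. It was not rerun with a second library left out, since a condition would then be missing from the libraries that choose the domains. With the replicate number as a block, the differences of -17.6 points, -0.94 and -18.1 points were the same by construction, and the smallest exact p was 0.5. Same-numbered libraries deviated in opposite directions in domain coverage (Pearson r of -0.221 over 2427 domains, a description), and the numbers were not taken as pairs. The crossed pairing, added after seeing this, left 0 tests past 0.05, as did the numbered one. Both blocks are counted among the 14 and 10 alternatives above, although neither could change a difference or its sign.

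With 2 libraries against 2 the smallest exact p is 0.333. Without K+PDS replicate 1, the library with the fewest recovered reads, both differences were smallest in size, at -9.98 points in covered share and -0.01 in fold enrichment. The covered share moved the other way without K+PEG replicate 2, to -25.1 points, and without K+PDS replicate 2, to -24.6 points. Domain edges and peak numbers depend on where MACS2 joined or split peaks, and the depth rests on an assumed extension.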
